A study of Mus musculus with 18 samples.

Results

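Epicardial and mesothelial genes were followed through 6 days of mouse heart development in GFP-positive cells sorted from embryonic ventricles. The 10 genes, Tbx18, Tcf21, Krt8, Krt18, Krt19, Upk3b, Msln, Lrrn4, Bnc1 and Gpm6a, were chosen by name, as every array probe whose platform annotation carries 1 of these symbols. They took 16 of the 45281 probes of the array, which stand for 10 of 19057 named genes. The set was chosen with earlier results of these data known. Counts of its calls beside the share of all probes therefore describe the set and do not test it. The embryos carried a GFP knock-in at Wt1 (Wt1GFPKI), and each array measured total RNA of FACS-sorted Wt1-GFP+ cells, marked M in the labels, from 1 of the stages E11.5, E12.5, E13.5, E14.5, E15.5 and E16.5. There were 3 arrays per stage and 18 in all. Every group shared the knock-in allele and the sort for GFP, so by their labels the stages differ only in embryonic age, and a GFP-negative or wild-type population was not analysed here. The labels give neither the strain nor the zygosity, do not say whether hearts were pooled, and do not say that the 3 arrays of a stage came from separate litters. The p-values therefore measure only the spread between these arrays, which may be technical. The reporter follows the Wt1 locus; Wt1 itself was not analysed here.

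The epicardium is the mesothelial sheet that covers the heart. Some of its cells pass through an epithelial-to-mesenchymal transition, enter the ventricular wall and give rise to fibroblasts and mural cells of the coronary vessels. Wt1, Tbx18 and Tcf21 are transcription factors that mark these cells and their descendants, whereas simple-epithelial keratins, uroplakins and mesothelin are used as markers of the covering sheet. The signal of these genes was not assigned to a cell type here. The series title calls the sorted cells cardiomyocytes that express Wt1GFP. All 14 cardiomyocyte markers with a named probe were above background on all 18 arrays, and their summed intensity per array was 93061 to 96757 at E11.5 and 93962 to 99213 at E16.5. The sum does not show single markers. By the test described below, 3 of the 14 were higher at E16.5 than at E11.5 (Tnni1, Tnni3 and Ryr2). Lower were 2, Myl7 (log2 change -2.48) and Nppa (-1.97). Of all genes by their brightest probe 11.4% were called higher and 12.8% lower. Markers of fibroblasts, endothelium and red cells were measured as well, so the RNA of each array may be a sum over cell types. In such a sum, fewer cells of a type and less RNA per cell cannot be told apart.

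The values are deposited probe intensities on a linear scale, quantile-normalized between arrays. A probe was taken as above background where its intensity exceeded 105.4, the mode of all values, 99.0, plus 1.64 SD of the spread below it. Of the 16 probes, 10 probes of 8 genes were above that limit on at least 3 of the 18 arrays and were tested, against 55.8% of all probes. The 6 others were the 3 probes of Gpm6a, the probe of Lrrn4 and a second probe each of Tbx18 and Krt8. Tests were made with limma on background-corrected log2 intensities, and every adjusted p is Benjamini-Hochberg over all 25288 probes tested, with a threshold of 0.05.

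Only some of the set was measurable in these cells. Tbx18, Tcf21, Krt8 and Upk3b each had a probe above background on all 18 arrays. Krt18 and Krt19 were above it on 16 arrays each. Krt18 was missed on 1 array at E15.5 and 1 at E16.5, and Krt19 on 2 of the 3 arrays at E16.5. The number of genes above background on all 3 arrays of a stage was 6 at each stage from E11.5 to E14.5, 5 at E15.5 and 4 at E16.5. Counted by probes, 8 of the 16 were above it on all 3 arrays at E11.5 and 5 at E16.5. Over all probes the share was 37.4% at E11.5 and 36.4% at E16.5. The summed intensity of the 10 genes was 1331 to 1458 per array at E11.5, 1549 to 1705 at E13.5 and between 1306 and 1432 on the arrays of E15.5 and E16.5. All E13.5 arrays were above every array of the other stages. Like every summed intensity given here, this sum includes the background of each probe, near 99.0. It also adds the rise of Tcf21 to the falls of the keratins.

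**Figure D1:**
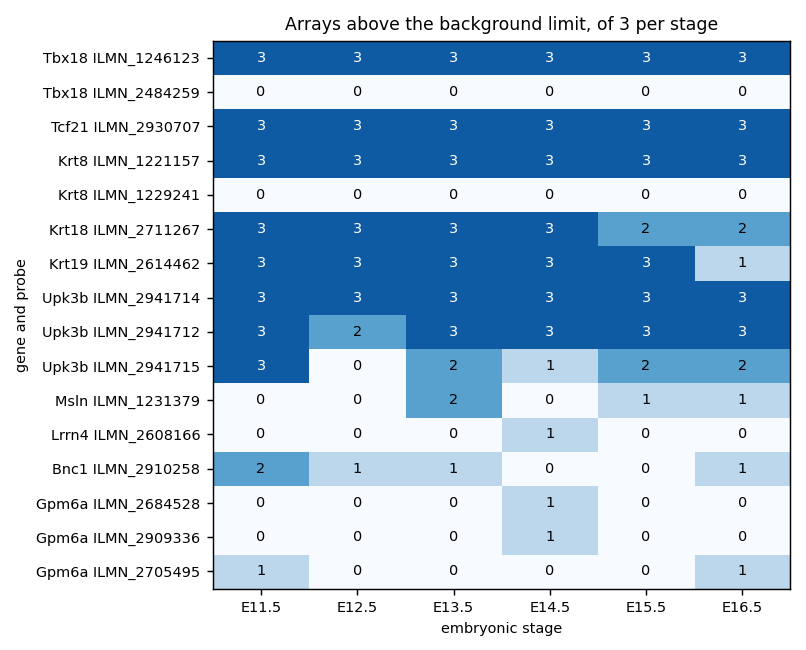
Number of arrays, of 3 per stage (columns), on which each of the 16 probes (rows) exceeded the background limit; darker cells mark more arrays. Krt19 falls from 3 arrays at E15.5 to 1 at E16.5, and the probes of Gpm6a, Lrrn4 and Msln are above the limit on 4 arrays or fewer.

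Between the first and the last stage the keratins fell and Tcf21 rose. Of the 10 probes tested, 7 passed the test between E16.5 and E11.5, against 19.5% of all probes. Tcf21 was the 1 probe called higher, against 8.97% of all probes, and the 6 called lower were those of Krt8, Krt18, Krt19 and Tbx18 and 2 probes of Upk3b, against 10.5%. The F test over the 6 stages called the same 7 probes, against 23.3% of all. A linear trend was called for 6 of the 10, against 25.2%, and a curved course (quadratic term) for 3 of the 10, Krt18, Krt19 and, at the threshold, Tcf21, against 4.07%. All 6 genes read less than 5 times the background limit on every array, and the size of their log2 changes depends on the background correction. Without it the changes kept their direction and call but were smaller, from 0.24 (Tbx18, lower) to 1.42 (Tcf21, higher) in place of 0.58 to 2.14.

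**Figure D2:**
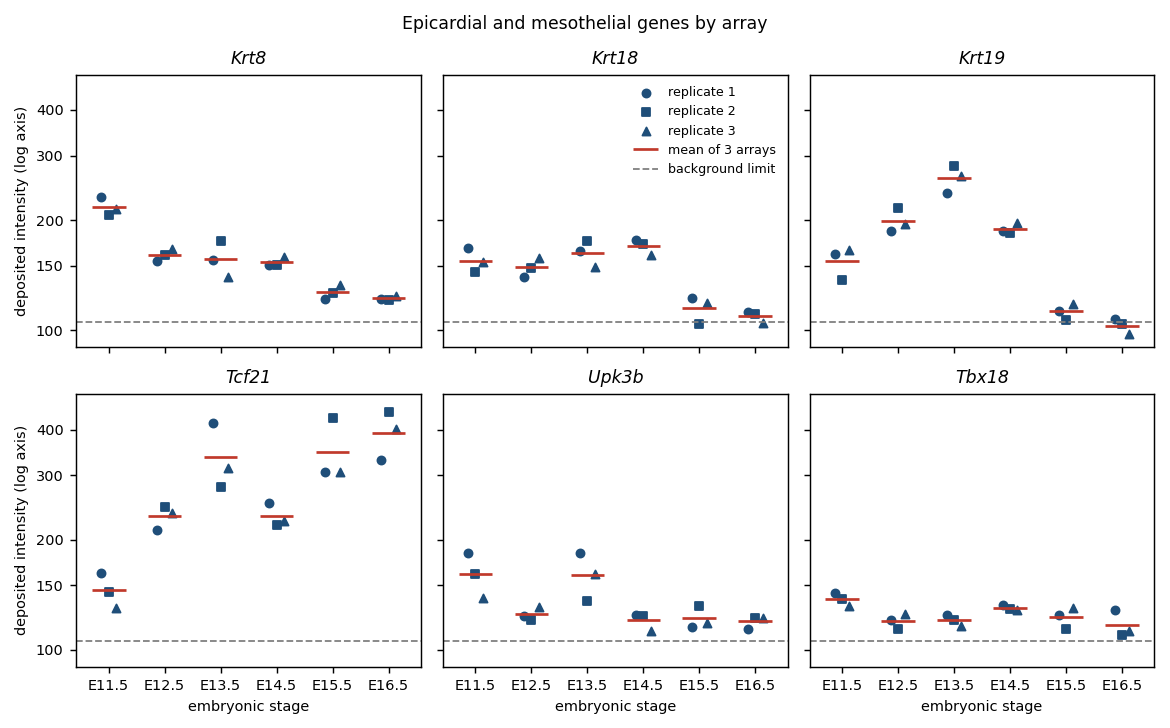
Deposited intensity (log axis) of 1 probe for each of 6 genes on the 18 arrays, by stage; symbols are replicates, red lines the means of 3 arrays and the dashed line the background limit of 105.4. The keratins end near the limit at E16.5, whereas Tcf21 rises from 130.2 to 163 at E11.5 to 329 to 446 at E16.5.

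Keratins 8, 18 and 19 are intermediate filament proteins of simple epithelia. Krt8 is the type II partner that assembles with the type I keratins Krt18 and Krt19. Krt8 and Krt18 lie next to each other on chromosome 15 and are transcribed away from each other, with no protein-coding gene between them in RefSeq, whereas Krt19 lies on chromosome 11 between Krt15 and Krt9. The RefSeq start regions of the neighbouring pair are printed because the pair did not keep the same course. Each window holds 250 bases before and 50 after the gene's start in build GRCm38.p6, read 5′ to 3′ on the gene's own strand: Krt8 at chr15:102004293-102004592 on the minus strand and Krt18 at chr15:102027966-102028265 on the plus strand. Capitals mark matches, on either strand, to the letters TATAA (the core of the TATA box), CANNTG (the E-box), GATAA (the motif of GATA factors), GGAATG (the motif of TEAD factors) or GCGTGGG (the core bound by EGR factors and WT1).
Krt8: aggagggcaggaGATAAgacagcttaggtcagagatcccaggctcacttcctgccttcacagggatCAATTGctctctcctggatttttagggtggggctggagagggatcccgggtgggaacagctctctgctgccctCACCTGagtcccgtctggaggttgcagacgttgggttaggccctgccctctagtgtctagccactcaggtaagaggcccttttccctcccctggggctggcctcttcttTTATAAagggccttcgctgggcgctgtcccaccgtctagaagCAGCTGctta
Krt18: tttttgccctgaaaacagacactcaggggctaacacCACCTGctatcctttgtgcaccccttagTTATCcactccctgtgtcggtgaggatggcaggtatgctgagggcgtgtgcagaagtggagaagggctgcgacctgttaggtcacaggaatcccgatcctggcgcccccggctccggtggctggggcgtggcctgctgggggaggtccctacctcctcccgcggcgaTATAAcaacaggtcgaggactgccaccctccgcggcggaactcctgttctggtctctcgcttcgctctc

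Both windows hold TATAA, which 24.9% of 32851 mouse windows of this length hold. In Krt8 its 2 matches overlap, 1 on each strand. Both windows hold GATAA, as 25.4% do, and an E-box, as 72.3% do, with 3 E-boxes in Krt8 and 1 in Krt18. GGAATG (14.7% of windows) and GCGTGGG (5.04%) were not among the letters of either window. These matches are a description of the sequence.

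Krt8 fell in 2 steps. Its intensity was 232, 206 and 215 on the 3 arrays of E11.5, 154, 160.3 and 167 at E12.5, and 156, 175 and 139 at E13.5. It was 151, 151 and 159 at E14.5, 122, 126 and 133 at E15.5 and 122, 121 and 124 at E16.5. The E11.5 arrays were above all later ones, and the arrays of E15.5 and E16.5 were below all earlier ones, and the 3 days between overlapped. Krt8 was 2.93-fold lower at E16.5 than at E11.5 (log2 change -1.55, SE 0.14, adjusted p 4.82e-09). It fell by 0.72 on the log2 scale from E11.5 to E12.5 (SE 0.14, adjusted p 0.0035) and by 0.58 from E14.5 to E15.5 (adjusted p 0.0163). The later step was not called without replicate 3 of E14.5 (adjusted p 0.101), replicate 1 of E15.5 (0.071) or replicate 2 of E15.5 (0.0779).

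Krt18 showed no called change for 4 days and then fell within 1 day. Its intensity was 167, 144 and 154 at E11.5, 140.2, 148 and 158 at E12.5, 165, 175 and 149 at E13.5 and 177, 172 and 160.2 at E14.5. It was 123, 104 and 119 at E15.5 and 112, 111 and 105 at E16.5. The E12.5 arrays were all below the E14.5 arrays, the other stages up to E14.5 overlapped, and all 12 of these arrays were above the 6 later ones. From E14.5 to E15.5 Krt18 was 2.32-fold lower (log2 change -1.21, SE 0.16, adjusted p 4.22e-05), and from E11.5 to E16.5 it was 2.26-fold lower (adjusted p 5.23e-06). No other daily step of Krt18 was called.

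Krt19 rose first and then fell well below its starting level. Its intensity was 161, 137 and 165 at E11.5, 187, 216 and 196 at E12.5, and 237, 282 and 264 at E13.5. It was 187, 184 and 197 at E14.5, 113, 107 and 118 at E15.5, and 107, 104 and 98.0 at E16.5. The E13.5 arrays were the highest, E12.5 and E14.5 overlapped each other, and the last 2 days were below every other array. On the log2 scale the mean went from 6.33 ± 0.29 (SD, n = 3) at E11.5 to 7.55 ± 0.18 at E13.5 and 4.89 ± 0.23 at E16.5. The fall from E14.5 to E15.5 was 2.95-fold (log2 change -1.56, SE 0.15, adjusted p 1.23e-06), and E16.5 was 2.71-fold lower than E11.5 (adjusted p 1.31e-07). Only 1 of the 3 arrays of E16.5 was above the background limit, so the size of that last fold is uncertain. The quadratic term of Krt19 had an adjusted p of 2.81e-09.

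The smaller steps around the peak of Krt19 were less secure. The rise of 0.64 on the log2 scale from E11.5 to E12.5 had an adjusted p of 0.0272, and it was not called without replicate 2 of E11.5 (0.243), replicate 2 of E12.5 (0.149) or replicate 3 of E12.5 (0.0823). The step of 0.57 from E12.5 to E13.5 missed the threshold (adjusted p 0.0506) and passed it under 10 of 27 alternatives. The fall of 0.69 from E13.5 to E14.5 (adjusted p 0.0166) was not called without replicate 2 (0.094) or 3 (0.101) of E13.5, or without replicate 1 (0.065), 2 (0.0797) or 3 (0.0589) of E14.5.

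The 3 keratins thus shared the fall between E14.5 and E15.5 and differed before it. In the same model fitted to the difference of 2 probes on each array, the change of Krt19 from E11.5 to E12.5 exceeded that of Krt8 by 1.37 on the log2 scale (95% interval 1.04 to 1.70). That of Krt18 exceeded it by 0.61 (0.29 to 0.93). From E14.5 to E15.5 Krt19 fell more than Krt8, with a difference of -0.98 (-1.31 to -0.65), and Krt18 fell more than Krt8, with a difference of -0.64 (-0.96 to -0.31). Over the whole course, E16.5 against E11.5, the change of Krt19 differed from that of Krt8 by 0.11 (-0.22 to 0.44), and that of Krt18 by 0.37 (0.05 to 0.70). These are differences of log2 changes, and the part that unequal distance of the 3 probes from background has in them was not tested.

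**Figure D3:**
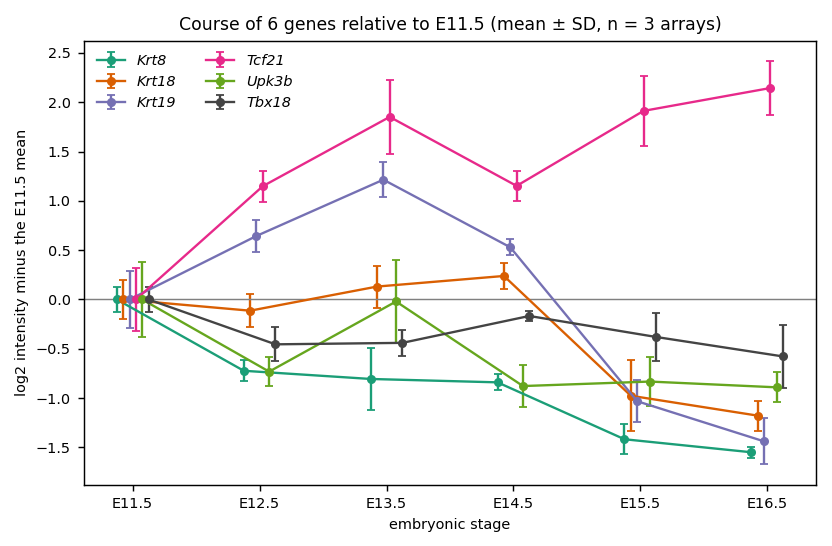
Mean log2 intensity of 6 genes relative to their own E11.5 mean, by stage; bars are the SD of 3 arrays. Krt19 peaks at E13.5 and drops after E14.5 together with Krt18, Krt8 declines in 2 steps, and Tcf21 ends 2.14 above its E11.5 mean.

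Tcf21 is a basic helix-loop-helix transcription factor of epicardial cells that is also a marker of the fibroblast lineage. Its start region is printed as that of the 1 gene in the set that rose. The window lies at chr10:22820094-22820393 on the minus strand of GRCm38.p6 (RefSeq), with capitals as above.
Tcf21: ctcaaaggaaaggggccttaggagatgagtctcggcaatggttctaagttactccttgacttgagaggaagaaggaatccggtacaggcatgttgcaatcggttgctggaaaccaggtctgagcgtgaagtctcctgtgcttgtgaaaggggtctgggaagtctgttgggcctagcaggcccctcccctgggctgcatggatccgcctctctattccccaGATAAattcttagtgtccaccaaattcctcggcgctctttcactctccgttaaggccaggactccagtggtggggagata

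This window holds 1 GATAA and none of the other letters searched.

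Tcf21 rose over the course with a dip at E14.5. Its intensity was 163, 144 and 130.2 at E11.5, 213, 246 and 237 at E12.5, and 417, 279 and 313 at E13.5. It was 252, 219.5 and 225 at E14.5, 305, 429.6 and 307 at E15.5, and 329, 446 and 401 at E16.5. All E11.5 arrays were below all others. E12.5 and E14.5 overlapped, as did E13.5, E15.5 and E16.5 above them. Tcf21 was 4.42-fold higher at E16.5 than at E11.5 (log2 change 2.14, SE 0.19, adjusted p 7.74e-09). The rise of 1.15 from E11.5 to E12.5 (adjusted p 0.00104) was called, and the step of 0.70 from E12.5 to E13.5 missed the threshold (adjusted p 0.0559).

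The dip of Tcf21 separated the arrays of both days, as was so for 22.8% of all probes tested, but passed the test narrowly. It fell by 0.70 from E13.5 to E14.5 (SE 0.19, adjusted p 0.0473), and the 3 arrays of E14.5 were below the 3 of E13.5. That call was lost without any 1 of the 3 arrays of E13.5 (adjusted p 0.133, 0.0506 and 0.141 without replicates 1, 2 and 3) or of E14.5 (0.0785, 0.165 and 0.159). It was also lost without replicate 2 of E11.5 (0.0576), replicate 2 (0.0531) or 3 (0.0536) of E12.5, or replicate 3 of E15.5 (0.0503). Without 1 array of E13.5 or E14.5 the change was between -0.86 and -0.49, and leaving out an array of another stage did not alter it. The rise of 0.76 from E14.5 to E15.5 (adjusted p 0.0274) was lost without replicate 2 (0.131) or 3 (0.12) of E14.5 or replicate 2 of E15.5 (0.241). The curved term of Tcf21 stood at the threshold (adjusted p 0.0499) and was lost under 15 of 26 alternatives. These included no background correction (adjusted p 0.251), which moved the term from -0.47 to -0.25, and leaving out replicate 2 (0.102) or 3 (0.176) of E11.5, replicate 2 (0.0612) or 3 (0.0613) of E12.5, replicate 1 (0.0852) or 3 (0.0657) of E13.5, replicate 1 (0.122), 2 (0.0663) or 3 (0.0773) of E14.5, or replicate 1 (0.123) or 3 (0.0858) of E16.5.

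Markers of fibroblasts and mesenchyme, and of endothelium, also moved over these days. Their summed intensity over 15 genes was 3197 to 3784 per array at E11.5, 6143 to 6627 at E13.5, 4938 to 5010 at E14.5 and 7854 to 10509 at E16.5, while Postn, 1 of the 15, was at background on all arrays. Of the 14 tested, 12 rose between E11.5 and E16.5, Fbln1 fell (log2 change -0.93, adjusted p 0.00067) and Fbln2 was not called. The median log2 change was 1.64, beside -0.01 over all genes by their brightest probe. Over all genes 11.4% were called higher and 12.8% lower. Of 14 endothelial markers 9 rose, Plvap fell (log2 change -1.41, adjusted p 2.46e-07) and 4 were not called, with a median change of 0.83. Their sum was 2411 to 2717 per array at E11.5, 2859 to 3447 at E13.5, 2375 to 2439.7 at E14.5 and 3560 to 5456 at E16.5, so it too was lower at E14.5 than at E13.5. Of 9 smooth muscle and pericyte markers tested, 4 rose, Tagln fell (at least 3.29-fold lower, adjusted p 7.58e-10) and 4 were not called. The median change of these 9 was 0.06. The part of all these markers in the change of Tcf21 was not tested.

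Tbx18, a T-box factor of the proepicardium and epicardium, was dim throughout and lower at the end than at the start. Its brighter probe read 143, 137 and 132 at E11.5, between 114 and 125 on the arrays of E12.5 and E13.5, and 133, 129 and 128 at E14.5. It read 124, 114 and 129.9 at E15.5 and 128, 109.5 and 112 at E16.5. E11.5 overlapped only E14.5. Tbx18 was 1.49-fold lower at E16.5 than at E11.5 (log2 change -0.58, SE 0.15, adjusted p 0.00668), a call that was lost without replicate 2 of E16.5 (adjusted p 0.0554). The F test was near the threshold (adjusted p 0.04) and missed it under 14 of 27 alternatives. Among these were leaving out any 1 array of E11.5 or E14.5, replicate 2 of E12.5, replicate 2 or 3 of E13.5 and replicate 2 or 3 of E16.5, with an adjusted p of up to 0.144 without replicate 1 of E11.5.

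Upk3b encodes a uroplakin of urothelial and mesothelial surfaces, and it lies next to its relative Upk3bl on chromosome 5. It was the 1 gene of the set with 3 probes tested, which share a target gene and are not independent replicates. Its start region, at chr5:136038246-136038545 on the plus strand of GRCm38.p6 (RefSeq), is printed for the searched letters it holds.
Upk3b: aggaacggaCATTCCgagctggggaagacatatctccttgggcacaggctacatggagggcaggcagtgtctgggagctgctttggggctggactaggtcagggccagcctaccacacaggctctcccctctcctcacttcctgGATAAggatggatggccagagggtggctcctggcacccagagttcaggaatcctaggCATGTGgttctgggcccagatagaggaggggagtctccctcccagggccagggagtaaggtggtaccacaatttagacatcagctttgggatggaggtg

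The Upk3b window has 1 E-box, 1 GATAA and 1 match to the TEAD letters GGAATG, here on the opposite strand.

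Upk3b was high at E11.5 and again at E13.5. The brightest probe (ILMN_2941714) read 184, 162 and 139 at E11.5, 124, 121 and 131 at E12.5 and 184, 136 and 161 at E13.5. It then read 124, 124 and 113 at E14.5, 115, 132 and 119 at E15.5, and 114, 123 and 122 at E16.5. The second probe (ILMN_2941712) read 155, 148 and 128 at E11.5, 116, 105 and 110.0 at E12.5, 154, 129 and 146 at E13.5, and between 106 and 119 on the 9 later arrays. For both probes the 6 arrays of E11.5 and E13.5 were above the 12 others. The third probe (ILMN_2941715), above background on 10 arrays, read 96.3 to 126, with its highest array at E13.5, and no comparison of it was called.

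The second Upk3b probe fell by 0.90 on the log2 scale from E11.5 to E12.5 (SE 0.17, adjusted p 0.00305), rose by 0.90 to E13.5 (adjusted p 0.00563) and fell by 0.84 to E14.5 (adjusted p 0.0096). The brightest probe gave -0.73, 0.71 and -0.86 for the same steps, with adjusted p of 0.0495, 0.049 and 0.0157. The first 2 of these stood at the threshold and were each lost under 17 of 28 alternatives, with adjusted p of up to 0.305 without replicate 1 of E11.5 and up to 0.166 without replicate 3 of E13.5. Both were lost without replicate 2 of E11.5, replicate 3 of E13.5, replicate 3 of E15.5, replicate 2 of E16.5 or any 1 array of E12.5 or E14.5, the first also without replicate 1 of E11.5 or 3 of E16.5, and the second also without replicate 1 of E13.5. The fall to E14.5 was lost without replicate 3 of E13.5 (0.101 for the brightest probe, 0.0664 for the second), for the brightest probe also without replicate 2 (0.0508) or 3 (0.105) of E14.5, and for the second without replicate 1 of E14.5 (0.0558). From E11.5 to E16.5 the brightest probe was 1.85-fold lower (adjusted p 0.00119) and the second 1.64-fold lower (adjusted p 0.00292).

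The remaining 4 genes were at or near background. Msln, which encodes the mesothelial surface protein mesothelin and lies beside Mslnl on chromosome 17, read 93.5 to 110.1 over the 18 arrays and was above background on 4 of them, 2 at E13.5 and 1 each at E15.5 and E16.5. Bnc1, the zinc finger protein basonuclin, read 99.5 to 112 and was above background on 5 arrays. Between E11.5 and E16.5 Bnc1 changed by -0.16 on the log2 scale and was not called (SE 0.13, adjusted p 0.443). Msln, at background on all E11.5 arrays, was not called either (adjusted p 0.297), and no fold is given for it. Lrrn4, a leucine-rich repeat membrane protein, was above background on 1 array, of E14.5, and the 3 probes of Gpm6a, a neuronal and mesothelial membrane glycoprotein, on 1, 1 and 2 arrays. The low reading of these 4 genes does not show that the transcripts were absent.

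Day by day, the set changed most often at the first step and around E14.5. From E11.5 to E12.5, 5 of the 10 probes tested were called, against 1.59% of all probes: 2 higher (Tcf21, Krt19; 0.819% of all) and 3 lower (Krt8 and 2 of Upk3b; 0.775%). From E12.5 to E13.5, 2 were called, both of Upk3b and both higher, against 2.1% called and 0.945% called higher (1.15% lower). From E13.5 to E14.5, 4 were called, all lower (Tcf21, Krt19 and 2 of Upk3b), against 3.16% called, 1.74% lower and 1.42% higher. From E14.5 to E15.5, 4 were called, against 3.16%: Krt8, Krt18 and Krt19 lower (1.32%) and Tcf21 higher (1.84%). From E15.5 to E16.5 limma called 0 of 10, with each adjusted p at 0.999, against 0.00395%, which is 1 probe of all.

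The count of calls per step depended on single arrays. The count of 4 from E13.5 to E14.5 became 0 without replicate 3 of E13.5, 2 without replicate 2 of E13.5 and 1 without any 1 of the E14.5 arrays. The count of 5 from E11.5 to E12.5 became 3 without replicate 2 of E11.5 or replicate 2 or 3 of E12.5. The count of 4 from E14.5 to E15.5 became 2 without replicate 3 of E14.5 or replicate 2 of E15.5. The falls of Krt18 and Krt19 at that step, and the fall of Krt8 and the rise of Tcf21 at the first step, were called under every alternative in which they were fitted.

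Other genes known from the epicardium and mesothelium did not fall as a group. Of 24 such genes 19 had a named probe and 14 were tested. Between E11.5 and E16.5, 6 rose and 2 fell, with a median log2 change of 0.10, or 0.06 with Aldh1a2 at its bound. Over all genes by their brightest probe 24.2% were called, 11.4% higher and 12.8% lower, with a median of -0.01. Aldh1a1, Sema3d, Efemp1 and Anxa8 were at background on all arrays.

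The gene with the largest rise was Sulf1, a sulfatase that trims heparan sulfate. It read 135, 128 and 122 at E11.5, 253, 472 and 283 at E15.5 and 330.0, 433 and 455 at E16.5, a 5.97-fold rise (adjusted p 3.77e-09). Rarres2, which encodes the adipokine chemerin, rose 4.57-fold (adjusted p 2.08e-08) on its brightest probe, while another of its probes had the opposite sign. Scx, the basic helix-loop-helix factor scleraxis, rose 2.17-fold (adjusted p 2.77e-07). Gata6 and Nkain4 were also called higher, with log2 changes of 0.43 and 0.42. Aldh1a2, the enzyme that makes retinoic acid, was at background on all E11.5 arrays and was at least 1.02-fold higher (adjusted p 0.0397).

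Those 3 smaller calls were not stable to the arrays used. Gata6 was not called without replicate 2 of E11.5 (adjusted p 0.0927) or replicate 1 of E16.5 (0.131). Nkain4 was not called without replicate 3 of E11.5 (0.279), or replicate 2 (0.125) or 3 (0.0572) of E16.5. Aldh1a2 was not called without any 1 of the E11.5 arrays (0.104, 0.105 and 0.0704 without replicates 1, 2 and 3) or without replicate 2 (0.153) or 3 (0.198) of E16.5.

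The 2 that fell were Cdh3 and Upk1b. Cdh3, the adhesion protein P-cadherin, read 284, 269 and 267 at E11.5, 265.5, 263 and 268 at E14.5, 229.5, 169 and 234 at E15.5 and 193, 187 and 174 at E16.5. Like Krt18 it was lower on all arrays of the last 2 days than on the 12 before, and it was 1.79-fold lower at E16.5 than at E11.5 (adjusted p 0.00029). Upk1b, a uroplakin of the tetraspanin family, read 129, 127 and 121 at E11.5 and at most 116 on every later array, and was 1.59-fold lower (adjusted p 0.00371). Gata5, Podxl, Flrt2, Itga4, Krt7 and Dmkn were not called, with log2 changes from -0.26 to 0.11.

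**Figure D4:**
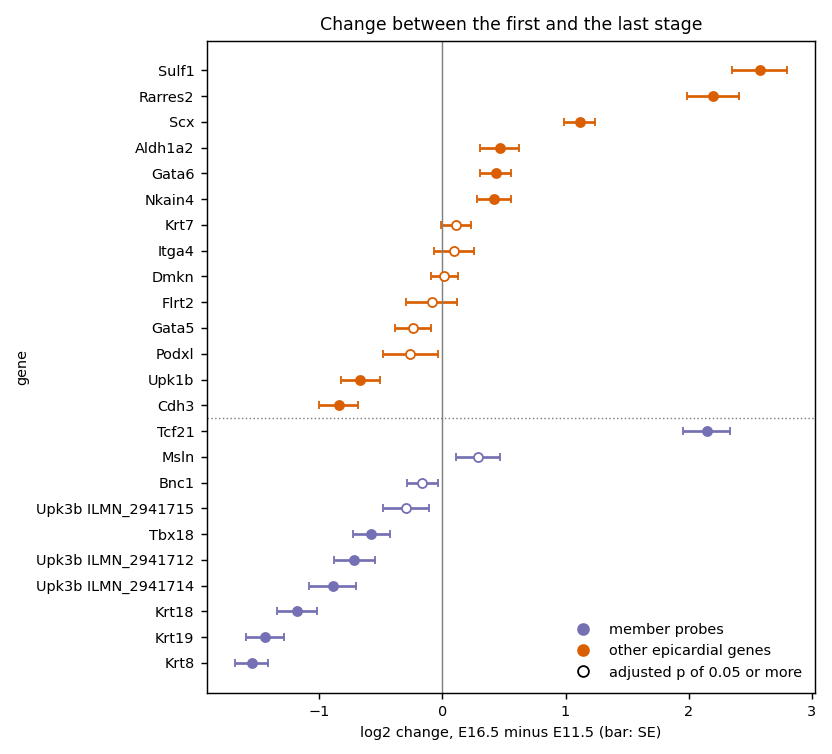
Log2 change from E11.5 to E16.5 with its SE for the 10 probes tested of the set (below the dotted line) and 14 other epicardial and mesothelial genes (above it); open symbols had an adjusted p of 0.05 or more. Of the first, 6 were called lower and 1, Tcf21, higher, whereas 6 of the other genes rose and 2 fell. Msln and Aldh1a2 were at background at E11.5, so their plotted values are fitted values and not measured changes.

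The closest relatives of the set gave 14 tested genes of 20, of which 3 rose, 1 fell and 10 were not called. This stands beside 11.4% called higher and 12.8% called lower over all genes by their brightest probe. The median log2 change was 0.10, or 0.04 with the 7 genes that were at background throughout 1 of these stages set to their bounds, or to 0 where none could be given. Krt20, another type I keratin of simple epithelia, read 124, 122.5 and 139 at E11.5, 101 to 116 from E12.5 to E15.5 and 103, 98.5 and 98.6 at E16.5, below the limit. It was at least 1.69-fold lower (adjusted p 4.64e-06). Of the other keratins Krt10 was called higher (log2 change 0.40, adjusted p 0.0303), a call lost without replicate 2 (0.101) or 3 (0.163) of E11.5 or replicate 3 of E16.5 (0.159). Krt1, Krt14, Krt15 and Krt23 were not called. Among relatives of Tcf21 in the basic helix-loop-helix family, Msc was 3.51-fold higher (adjusted p 7.23e-08), and Tcf15, at background on all E11.5 arrays, was at least 1.55-fold higher (adjusted p 1.62e-05).

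The listed epithelial junction genes gave no call. Of 17 genes 16 had a probe and 9 were tested, with 0 called by limma between E11.5 and E16.5 and a median log2 change of -0.02, or 0 with 3 genes at background treated likewise. The 2 with the largest fitted values were Cldn6, a claudin (adjusted p 0.0535), and Tjp3, a tight junction scaffold, with a change of 0.11 (adjusted p 0.703). Cldn6 was at background on all E11.5 arrays, and no fold is given for it. Cldn6 passed the threshold under 6 of 26 alternatives. Epcam, Ocln, Cldn3 and Grhl2 were at background on all arrays. The fall of the keratins was thus measured beside junction genes whose own changes were not detected. Of the 16 with a probe only 3, Cldn7, Tjp1 and Pkp2, were above background on all arrays, with log2 changes of -0.06, 0.02 and -0.09. The others read at or near the limit, where a fall could hardly be seen.

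The probes whose course came closest to each member were found by the root mean square difference of log2 values centred on each probe's mean over the 18 arrays. For Tcf21 these were Hic1 (difference 0.205), a transcriptional repressor, Spon2 (0.211), an extracellular matrix protein, and Ptn (0.221), the growth factor pleiotrophin. For Krt8 they were Bmpr1b (0.177), a BMP receptor, Grip1 (0.1997), a scaffold protein, and Ccnd2 (0.207), cyclin D2. For Krt18 they were Uchl1 (0.209), a ubiquitin hydrolase, Cxcl12 (0.221), a chemokine, and Fras1 (0.256), a basement membrane protein. For Krt19 they were 2 probes of Dgkk (0.297 and 0.308), a diacylglycerol kinase, and Hba-x (0.345), an embryonic alpha-type globin. The distances are to be read against courses that span 2.14 for Tcf21, 1.55 for Krt8, 1.42 for Krt18 and 2.65 for Krt19 between their lowest and highest stage means.

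Embryonic globin among the neighbours of Krt19 was accompanied by large movement of red cell markers in the same arrays. The summed intensity of the erythroid markers was 881 to 1208 per array at E11.5 and 8023 to 23031 at E16.5. Of 8 tested, 5 rose, adult globins among them, and the 3 embryonic globins fell, against 11.4% of all genes called higher and 12.8% lower. Hba-x was at least 1.25-fold lower (adjusted p 0.00101), Hbb-bh1 at least 1.87-fold lower (1.03e-06) and Hbb-y changed by -0.97 (0.0339). The sum of 8 macrophage markers, most of it background, went from 979 to 1074 at E11.5 to 836 to 853 at E16.5. Of 4 tested, 3 fell and 1 was not called, against 12.8% of all genes called lower. Their median log2 change was -1.15. Ptprc and C1qb were at background on all arrays. Of 4 neural crest and Schwann cell markers with a probe, Sox10, Foxd3 and Erbb3 were at background on all arrays. The 1 that was tested was called higher (log2 change 0.62). The part of these cells in the keratin changes was not tested. Arrays of 1 stage correlated at 0.98 to 0.994 over all tested probes, and 7 of the 18 arrays were closest to an array of another stage.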

How the data were processed

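RNA of sorted Wt1-GFP+ ventricular cells was measured on 18 Illumina mouse arrays, 3 per stage, grouped by the stage in the labels. The deposited values are linear intensities, from 83.8 to 17358, that the authors had quantile-normalized, as the files show, since sorted values differ by 0.0874% or less between arrays. Per the submitters' processing notes GenomeStudio 2011.1 was used, and its settings are not given in the sources used here. A further deposited table has 36 per-sample columns whose names match no sample, and it was not used, so no detection p or chip could be given to an array. The arrays carry no depth, and their number limits the precision.

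Values were background-corrected (normexp, offset 16), put on log2 and fitted with 1 coefficient per stage over all 18 arrays (limma 3.58.1, R 4.3.3), without a replicate block. Probes above 105.4 on at least 3 arrays were kept (25288 of 45281). This limit stands in for the filter on detection p that had been planned. Symbols came from the platform annotation, which names 1 gene for 34885 probes, several for 18 and none for 10378; 34807 were found in the RefSeq table of GRCm38.p6. A gene outside the set is represented by its brightest probe. A gene at background on all arrays of a stage has only a bound, given as at least N-fold: the brighter stage's mean against the lowest signal above background on each array, or the probe's own if higher.

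Every member is described. From other lists, the 4 called genes with the largest changes are named for relatives and other epicardial genes, or the 2 largest changes where none was called; further genes, chosen after their values were seen, are named so that short counts are complete. The 3 nearest courses are named for members spanning at least 1 on log2. The members and lists were chosen with earlier results of these data known.

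On data simulated for E16.5 against E11.5 with 25288 probes, the fit called 28.8% of 66 probes changed by 0.5 on log2, 88.1% of 67 changed by 1 and 100% of 67 changed by 2. No other probes were changed, whereas 4919 were called in the deposited data. The p needed for a call therefore differs, and these shares do not carry over directly. Replicate numbers are shared across stages. Same-numbered arrays deviated together with r over 0.1 for all 3 numbers in 3 of 15 stage pairs, and among the comparisons made here only in E16.5 against E15.5, from the data and not from the labels. With the replicate block, 0 members were called in that comparison too. Alternatives changed the background correction, offset, filter, weights, block, centring and arrays used. RefSeq promoter windows were found for 8 of the 10 genes and not for Krt19 and Msln.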

Additional observations from a re-analysis of the deposited data

How the results depend on the processing

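Under the alternatives tried, no result of a single probe reversed its direction while called; 3243 values kept their side of the threshold, 124 lost it and 31 gained it. The counts of calls among the 10 probes tested moved as follows. Keeping only probes above the limit on all 18 arrays left 4 of the 10 probes and 8 of the 14 other epicardial genes to test, and gave 4 calls (E16.5 against E11.5), 4 (F test), 3 (E12.5 against E11.5), 2 (E14.5 against E13.5), 2 (E15.5 against E14.5) and 1 (quadratic), with 5 of the other epicardial genes. Fitting only the arrays compared gave 5 of the other epicardial genes, 3 calls for E12.5 against E11.5 and 1 for E13.5 against E12.5. Leaving out all E14.5 arrays gave 3 and 1 for those steps, and no filter gave 1 for E13.5 against E12.5. Without 1 array at a time the counts were 3 to 5 (E12.5 against E11.5), 1 to 4 (E13.5 against E12.5), 0 to 4 (E14.5 against E13.5), 2 to 4 (E15.5 against E14.5), 6 to 7 (E16.5 against E11.5, F test, linear trend), 2 to 3 (quadratic) and 6 to 8 of the other epicardial genes. The cause of these shifts was not tested beyond the fewer arrays or probes they leave.

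With the replicate block the counts were 7, 4, 3, 4, 4 and 0 for E16.5 against E11.5 and the 5 daily steps in order. It ended the call of the brightest Upk3b probe at the first step (adjusted p 0.0516) and brought Krt19 from E12.5 to E13.5 (0.0493), the linear trend of Tbx18 (0.0281) and Cldn6 (0.0264) under the threshold. Of the 18 arrays, 11 were closest, among arrays of other stages, to one of the same number, a hint from the data alone. Msln was called with array weights (adjusted p 0.0444). Dimness is a further limit: the keratins, Upk3b and Tbx18 read under 3 times the background limit, where the background correction sets the size of a log2 change.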
